A study of Bos taurus with 8 samples.

Results

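Lipid droplets are the cell's stores of neutral lipid, and the genes that coat, enlarge and build them were measured in bovine blastocysts grown with or without serum lipids. The set comprised 10 genes: the coat proteins PLIN1, PLIN2, PLIN3 and PLIN5, the lipolysis inhibitor HILPDA, the fusion proteins CIDEA, CIDEB and CIDEC, and the droplet formation proteins FITM2 and BSCL2. Every expression probe whose symbol in the platform annotation was one of these names or an older synonym was taken, which gave 13 of 43794 probes. HILPDA stood on the array under its older symbol HIG2. The lipid group was 4 pools of Holstein blastocysts made in vitro from slaughter ovaries, kept in control medium to the 8 to 16 cell stage on day 3 and then given lipids extracted from serum until day 7. The control group was 4 pools that received no added lipid, and Sigma is labelled as the albumin source of both. Both were collected 170 hours after fertilization with 10 blastocysts per pool, and amplified RNA of each lipid pool was set against that of a control pool on 2 arrays with Cy3 and Cy5 exchanged, on slides named 87 and 88. Both arrays of a number counted as 1 pool pair (n = 4). Nothing in the labels says that the pools came from separate fertilization runs, so p-values measure the spread between these pools.

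A lipid droplet is a core of triglyceride and sterol ester under a single layer of phospholipid, and it grows out of the membrane of the endoplasmic reticulum, where FITM2 and seipin (BSCL2) act. Perilipins cover its surface and control how easily lipases reach the core, while CIDE proteins gather at contacts between droplets and let the lipid of one pass into another. Bovine oocytes and early embryos are rich in such droplets, and droplet content is a much used measure of how culture medium acts on cattle embryos.

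None of the 8 measurable genes passed the limma test of lipid over control after adjustment over all kept probes (lowest adjusted p of the set 0.996). PLIN2, the coat protein found on droplets of most cells, was detected in all lipid and control channels, and its mean log2 ratio of lipid over control was -0.05 ± 0.50 (SD, n = 4 pool pairs). FITM2, which helps droplets bud from the endoplasmic reticulum, was the gene with the lowest p of the set, at -0.24 ± 0.12, or a fold of 0.848, and below 0 in 4 of 4 pool pairs. The single CIDEA probe was not detected in any channel, and the single BSCL2 probe in 1 control channel. Across the 8 genes 4 means were above 0 and 4 below, with a median of -0.00, against a median of -0.00 and 49.9% above 0 for all 11684 measured genes.

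Each spot was read as a mean foreground intensity in either dye, and a probe was called detected in a channel when its foreground lay over a limit set by the 757 negative control spots, their mean plus 2 SD in the same array and channel. Of all 43794 probes, 28844 (65.9%) were detected in either channel on at least 4 of 8 arrays and were kept for testing. Of the 13 probes of the set, 9 (69.2%) were kept, and they covered 8 of 10 genes. At the edge of this filter, PLIN5 and the dimmer CIDEB probe were detected on 4 arrays and the dimmer FITM2 probe on 3. The median foreground over all probes was 188 to 267 in lipid channels and 180 to 324 in control channels. Array 1 of slide 87 had high detection limits, 461 in its lipid channel and 958 in its control channel, and 20.5% of its probes were detected in either channel, against 55.2% to 73.8% on the other arrays. On that array 2 probes of the set were detected, those of PLIN2 and PLIN3, against 7 to 10 on the others. With a limit from the median and a robust SD of the same spots, which a few bright spots move less, 11 of 13 probes were kept, and CIDEA and BSCL2 were each detected on 1 array.

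The embryo label was checked against lineage markers. All 8 trophectoderm markers and all 3 inner cell mass markers were kept, and KRT8, KRT18, GATA2, IFNT, TFAP2C, NANOG and POU5F1 were detected in 8 of 8 lipid and 8 of 8 control channels. GATA3 was detected in 7 lipid and 7 control channels, ELF5 and SOX2 each in 6 and 5, and CDX2, a defining trophectoderm factor, in 4 and 2. Of 7 adipocyte markers 4 were kept, with 0 detected in every channel, and their summed level was 550 to 584 in lipid pools and 558 to 591 in control pools. FABP4, a fatty acid binding protein of fat cells, was detected in 3 lipid and 1 control channels, and LEP in 4 lipid and 5 control channels. Cumulus and granulosa markers, 13 of 15 kept, had a median log2 ratio of 0.97 in pool pair 2, against -0.00, -0.03 and 0.14 in pool pairs 1, 3 and 4. Their summed level was 8414 to 41864 in lipid pools, the highest of them in pool pair 2, and 7901 to 16507 in control pools. The high ratios in pool pair 2 included those of the stromal-type genes LUM (3.70), VIM (2.96) and COL1A2 (1.12). INHBA, STAR, HSD3B1, GATM, PTX3 and CYP11A1 were each at 0.68 or above there, and 11 of 13 markers were above 0. FSHR at 0.02, INHA at 0.22, HAS2 at -0.18 and CYP19A1 at -0.24 did not share the high ratios. Of these, CYP19A1 was detected in 7 lipid and 7 control channels, FSHR in 3 and 3, INHA in 3 and 1 and HAS2 in 3 and 4. The sum includes stromal-type genes, so it is no specific measure of cumulus and granulosa cells. Whether the lipid pool of pool pair 2 held more of these cells was not tested. A blastocyst pool is a mixture, so fewer cells of a type and less RNA per cell cannot be told apart here.

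**Figure D1:**
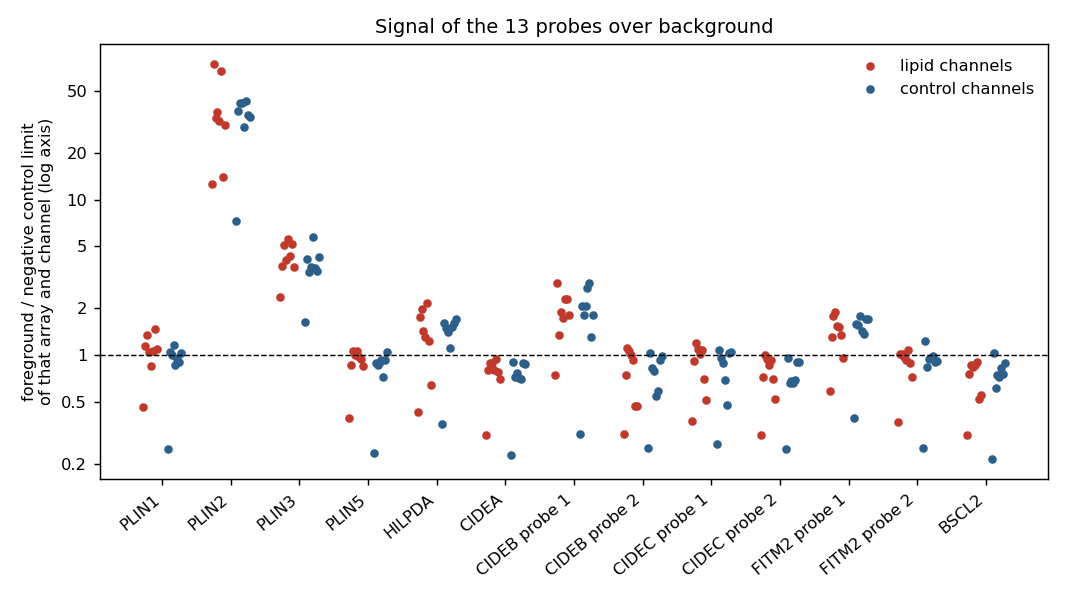
Foreground intensity of each of the 13 probes divided by the negative control limit of the same array and channel, on a log axis, with lipid channels left of control channels and 8 points in each. The dashed line at 1 is the limit. All points of PLIN2 and PLIN3 lie above it, all points of CIDEA and of CIDEC probe 2 below it, and those of the other 9 probes fall on both sides. The lowest points in most columns come from array 1 of slide 87.

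PLIN2 is the general droplet coat protein, made stable by droplet binding and degraded when free. Its lipid foreground on arrays 1 to 4 was 5808, 15656, 7709 and 7989 on slide 87 and 7388, 15468, 2981 and 8257 on slide 88. Its control foreground on the same arrays was 6953, 10990, 7928 and 7660 on slide 87 and 6272, 10706, 7948 and 8260 on slide 88. All were well above the limits, by 12.6 to 74.8 times in lipid channels and 7.26 to 43.2 times in control channels, so the ratios of PLIN2 do not rest on dim spots.

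After normalization the PLIN2 level, as log2 intensity, was 12.71, 13.90, 12.21 and 12.97 in the lipid pools of pool pairs 1 to 4, against 12.74, 13.39, 12.91 and 12.94 in the control pools. The groups overlapped, and the lipid pools held both the highest and the lowest of the 8 levels. The pool pair ratios were -0.03, 0.51, -0.70 and 0.02, so 1 pair was higher with lipid, 1 lower, and the other two close to 0. The mean of -0.05 had a limma 95% interval of -0.55 to 0.45, or a fold of 0.685 to 1.36 (limma unadjusted p = 0.807, adjusted p = 1).

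The SD of PLIN2 over pool pairs, 0.50, compared with a median SD of 0.207 over all kept probes, and 9.89% of kept probes had an SD at least as large. In pool pair 2 both arrays gave similar ratios, 0.52 on slide 87 and 0.49 on slide 88. That is the pool pair whose lipid pool also had the high cumulus and granulosa markers, and their part in the PLIN2 value was not tested. In pool pair 3 the arrays differed, with -0.08 on slide 87 and -1.32 on slide 88, a gap of 1.24 that 3.61% of kept probes reached in that pool pair. Without the slide 88 array of pool pair 3, an alternative chosen after seeing the data, the PLIN2 mean was 0.10, so 1 array set the sign of the mean.

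PLIN3 is a coat protein that moves between the cytosol and young droplets. Its lipid foreground on arrays 1 to 4 was 1082, 779, 1174 and 892 on slide 87 and 1294, 1006, 1099 and 1008 on slide 88. Its control foreground was 1563, 1218, 647 and 675 on slide 87 and 1231, 906, 790 and 1035 on slide 88. PLIN3 was thus detected in 8 of 8 lipid and 8 of 8 control channels, at 2.35 to 5.59 times the limit in lipid channels and 1.63 to 5.72 times in control channels.

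The PLIN3 level, as log2 intensity, was 10.21, 9.58, 10.01 and 9.76 in the lipid pools, against 10.46, 9.89, 9.37 and 9.66 in the control pools. The ranges overlapped, with the control pools spread more widely than the lipid pools. The pool pair ratios were -0.25, -0.31, 0.64 and 0.10, lower with lipid in pool pairs 1 and 2 and higher in 3 and 4. The mean was 0.05 ± 0.44 (SD, n = 4), with a limma 95% interval of -0.39 to 0.49, or a fold of 0.761 to 1.40 (limma unadjusted p = 0.794, adjusted p = 1). The 2 arrays of each PLIN3 pool pair lay within 0.06 to 0.25 of each other, closer than the median gap of 0.27 over all kept probes.

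The split of PLIN3 between pool pairs 1 and 2 and pool pairs 3 and 4 falls on the dye layout. On slide 87 the lipid pools of pairs 1 and 2 were in Cy5 and those of pairs 3 and 4 in Cy3, and on slide 88 the dyes were the other way round. Taken as a dye term, the difference between the orientations was -0.37 on slide 87 and 0.28 on slide 88, opposite in sign. A dye effect that changes sign between slides and a true difference between these pool pairs cannot be told apart.

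**Figure D2:**
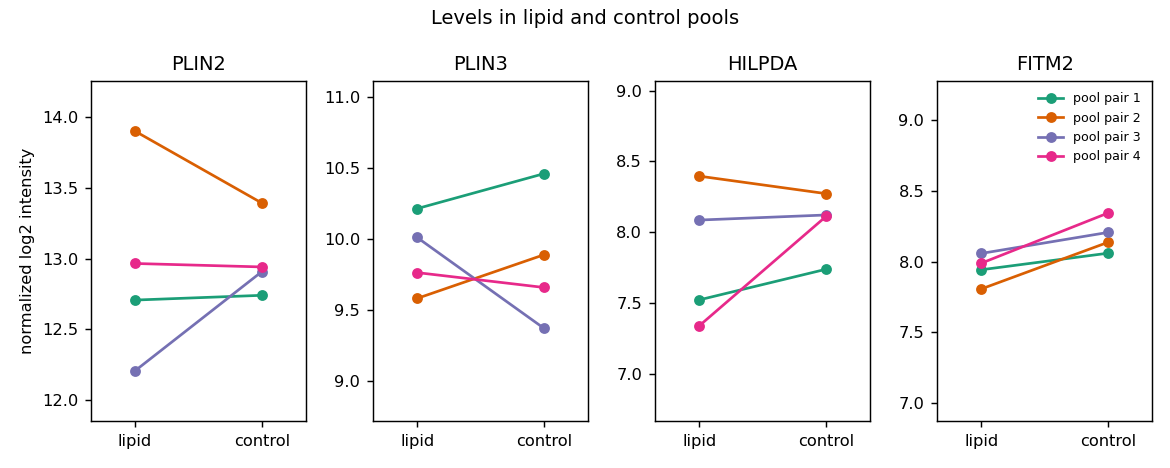
Normalized log2 intensity of PLIN2, PLIN3, HILPDA and FITM2 (its brighter probe) in the lipid pool and the control pool of each of 4 pool pairs, each point the mean of 2 arrays and each line joining the pools of 1 pair. The vertical axes differ in position and share 1 span. The lines of PLIN2 and PLIN3 run both ways, 3 of 4 lines of HILPDA and all 4 lines of FITM2 are lower in the lipid pool, and pool pair 4 has the steepest HILPDA line.

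PLIN1, the hormone-regulated coat protein of fat cells, was detected in 6 lipid and 4 control channels, near the limit. Its foreground was 197 to 314 in lipid channels (median 242) and 186 to 308 in control channels (median 222). The level, as log2 intensity, was 7.13, 7.40, 7.88 and 7.46 in the lipid pools, against 7.07, 7.35, 7.26 and 7.45 in the control pools. Pool pair 3 alone separated them: the pool pair ratios were 0.06, 0.05, 0.62 and 0.01. PLIN1 was above 0 in 4 of 4 pool pairs, with a mean of 0.19 ± 0.29 (SD, n = 4) and a fold of 1.14 (limma unadjusted p = 0.194, adjusted p = 1.00). Without pool pair 3 the PLIN1 mean was 0.04, without array 3 of slide 88 it was 0.09 and without array 4 of slide 88 it was 0.06, the single arrays chosen after seeing the data. On single arrays the sign of PLIN1 was less even, with 5 of 8 arrays above 0 and a dye term of 0.31 on slide 87 and 0.57 on slide 88.

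PLIN5, the coat protein that joins droplets to mitochondria in oxidative tissue, was detected in 3 lipid and 1 control channels, all 4 of them in Cy3. Its foreground was 179 to 244 in lipid channels (median 221) and 162 to 262 in control channels (median 205), at 0.39 to 1.06 times the limit in lipid channels and 0.23 to 1.05 times in control channels. The pool pair ratios were 0.17, 0.16, 0.11 and -0.02, a mean of 0.11 ± 0.09 (SD, n = 4; limma unadjusted p = 0.186, adjusted p = 0.998). The signal of PLIN5 lay at the limit in both groups, and what difference could be detected there was not tested. PLIN4, a coat protein of fat cells that the set does not include, is the direct neighbour of PLIN5 in the RefSeq annotation, with 0 protein-coding genes between them. PLIN4 was detected in 4 lipid and 3 control channels and had a mean of 0.01 ± 0.11 (SD, n = 4).

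HILPDA, a small protein induced by low oxygen and by fatty acids that restrains the lipase ATGL, was detected in 6 lipid and 7 control channels. Its lipid foreground on arrays 1 to 4 was 197, 366, 455 and 309 on slide 87 and 303, 500, 263 and 175 on slide 88. Its control foreground was 346, 470, 282 and 256 on slide 87 and 238, 378, 363 and 412 on slide 88. The lowest lipid value was on array 4 of slide 88, where the control value was the second highest of the 8.

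The HILPDA level, as log2 intensity, was 7.52, 8.40, 8.09 and 7.34 in the lipid pools, against 7.74, 8.27, 8.12 and 8.11 in the control pools. The groups overlapped, and the lipid pools were the more variable. The pool pair ratios were -0.22, 0.12, -0.04 and -0.77, with a mean of -0.23 ± 0.39 (SD, n = 4), a fold of 0.855 and a limma 95% interval of -0.63 to 0.18 (limma unadjusted p = 0.212, adjusted p = 1). Pool pair 4 set most of the HILPDA mean, and its arrays differed, with -0.06 on slide 87 and -1.48 on slide 88. On the slide 88 array the HILPDA lipid channel was not well above background, at 0.64 times the limit, so the size of that ratio, and with it the mean, rests in part on a signal below the limit. Without the slide 88 array of pool pair 4, an alternative chosen after seeing the data, the HILPDA mean was -0.05, and it was -0.04 without pool pair 4. In pool pair 1 the arrays gave -0.44 on slide 87 and 0.01 on slide 88. On that slide 87 array both HILPDA channels were below the limit, at 0.43 times (lipid) and 0.36 times (control).

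**Figure D3:**
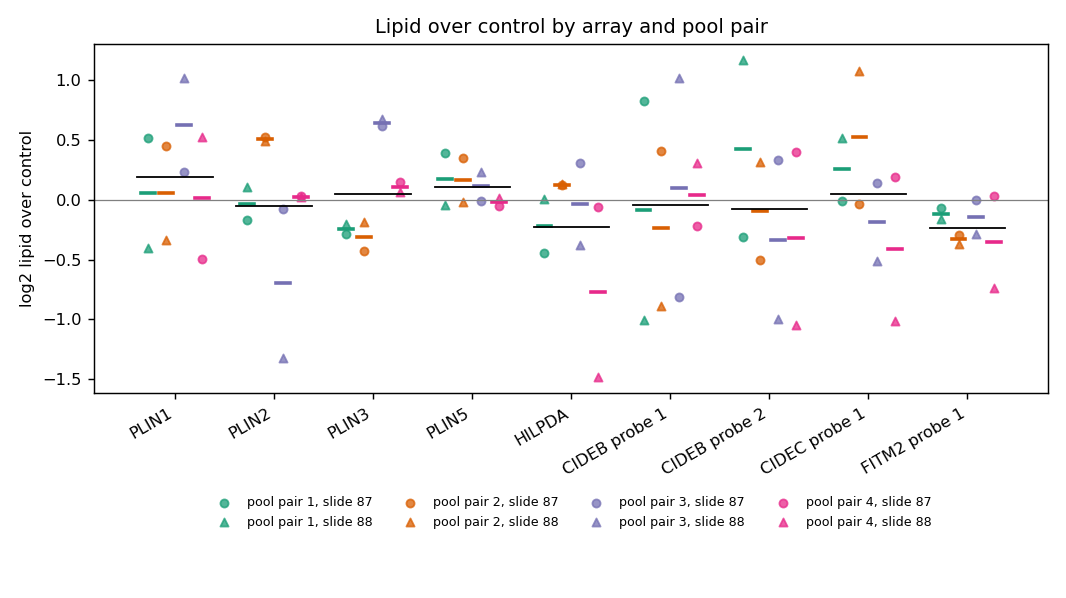
Log2 ratio of lipid over control for the 9 kept probes, with pool pairs 1 to 4 in 4 colours, a circle for the slide 87 array and a triangle for the slide 88 array of each pair, a coloured bar for their mean and a black line for the mean of the 4 pairs. PLIN2 and PLIN3 scatter on both sides of 0 by pool pair, the arrays of CIDEB probe 1 scatter by dye around a mean of -0.05, and all 4 pair means of FITM2 probe 1 lie below 0.

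The CIDE proteins enlarge droplets, and CIDEB is best known from liver, where it also serves lipoprotein assembly. The brighter CIDEB probe was detected in 7 lipid and 7 control channels. Its lipid foreground on arrays 1 to 4 was 345, 607, 308 and 411 on slide 87 and 399, 526, 486 and 496 on slide 88. Its control foreground was 299, 605, 343 and 377 on slide 87 and 579, 720, 298 and 438 on slide 88, over much the same range.

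On single arrays the ratios of this CIDEB probe were large, at 0.83, 0.41, -0.82 and -0.22 on slide 87 and -1.002, -0.89, 1.01 and 0.30 on slide 88. On array 1 of slide 87 both channels were below the limit, at 0.75 times (lipid) and 0.31 times (control). With that array included, the sign followed the dye on 8 of 8 arrays, above 0 wherever the lipid pool was in Cy5. As a dye term this was 0.57 on slide 87 and 0.80 on slide 88, against median sizes of 0.139 and 0.177 over all kept probes, and 1.17% of kept probes had terms at least as large on both slides. Averaged over exchanged dyes the pool pair ratios were -0.09, -0.24, 0.10 and 0.04, with a mean of -0.05 ± 0.15 (SD, n = 4; limma unadjusted p = 0.589, adjusted p = 1). The mean of the dye-swapped arrays had a smaller SD than the median probe, 0.207, although single arrays reached 1.01. Without array 3 of slide 88, which leaves pool pair 3 with 1 dye orientation (chosen after seeing the data), the CIDEB mean was -0.28 (limma unadjusted p = 0.122).

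The dimmer CIDEB probe went against the brighter one in dye. It was detected in 3 lipid and 1 control channels, all in Cy3, its dye term was -0.39 on slide 87 and -0.88 on slide 88, and its mean was -0.08 ± 0.36 (SD, n = 4; limma unadjusted p = 0.604, adjusted p = 1). Its pool pair ratios were 0.43, -0.09, -0.33 and -0.32, so the probes of CIDEB disagreed in sign in pool pairs 1, 3 and 4 and neither mean stood apart from 0.

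CIDEC, which drives the single large droplet of white fat cells, had 1 probe kept and 1 that was not detected in any channel. The kept probe was detected in 4 lipid and 3 control channels, all 7 in Cy3, with a foreground of 140 to 277 in lipid channels (median 213) and 119 to 315 in control channels (median 208). Its pool pair ratios were 0.25, 0.52, -0.19 and -0.41, higher with lipid in pool pairs 1 and 2 and lower in 3 and 4. The mean was 0.04 ± 0.42 (SD, n = 4; limma unadjusted p = 0.810, adjusted p = 1), with a dye term of -0.09 on slide 87 and -0.78 on slide 88. As for PLIN3, a dye effect that differs between slides and a difference between these pool pairs cannot be told apart. The undetected CIDEC probe had a foreground of 140 to 229 in lipid channels and 124 to 282 in control channels.

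CIDEA, known from brown fat and the lactating mammary gland of mice, was not well above background in any channel. Its foreground was 141.6 to 218 in lipid channels (median 189) and 136 to 267 in control channels (median 188), 0.31 to 0.94 times the limit in lipid channels and 0.23 to 0.91 times in control channels. No fold is given for CIDEA, since both groups were below the limit.

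**Figure D4:**
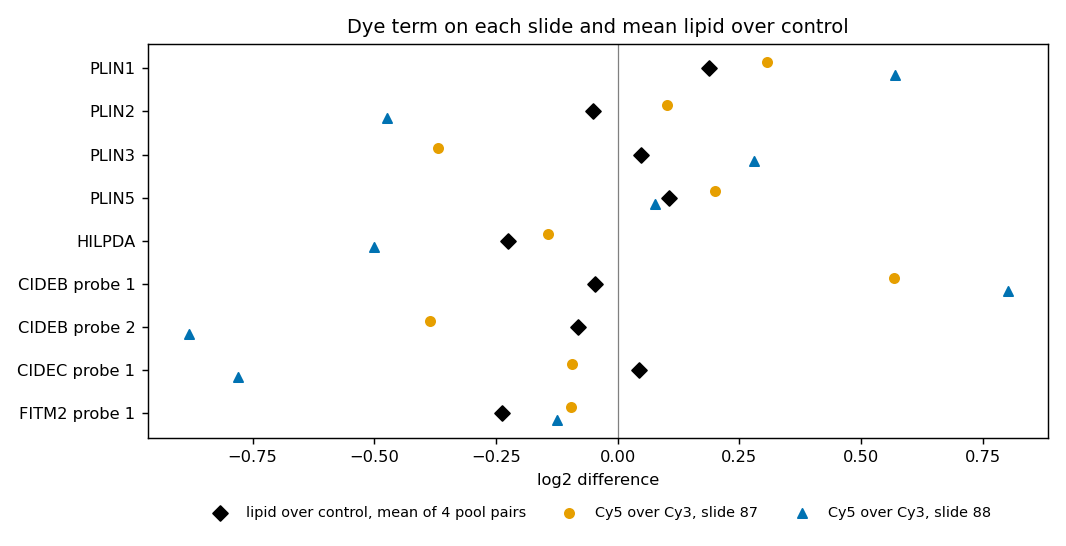
For each of the 9 kept probes, the mean log2 lipid over control of 4 pool pairs (black diamond) and the dye term, Cy5 over Cy3, on slide 87 (circle) and slide 88 (triangle). The dye terms of CIDEB probe 1 lie at 0.57 and 0.80 and those of CIDEB probe 2 at -0.39 and -0.88, farther from 0 than their lipid over control means of -0.05 and -0.08. The terms of PLIN2 and PLIN3 differ in sign between slides.

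FITM2, a membrane protein of the endoplasmic reticulum that lets droplets bud towards the cytosol, was below 0 in 4 of 4 pool pairs. Its brighter probe was detected in 6 lipid and 7 control channels. The lipid foreground on arrays 1 to 4 was 272, 275, 408 and 409 on slide 87 and 356, 349, 287 and 263 on slide 88. The control foreground was 378, 464, 294 and 325 on slide 87 and 306, 337, 386 and 413 on slide 88, and after normalization lipid was below control on 7 of 8 arrays.

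The FITM2 level, as log2 intensity, was 7.94, 7.81, 8.06 and 7.99 in the lipid pools, against 8.06, 8.14, 8.21 and 8.34 in the control pools. The groups touched, with the highest lipid pool and the lowest control pool both at 8.06. The pool pair ratios were -0.12, -0.33, -0.15 and -0.35, with a mean of -0.24 ± 0.12 (SD, n = 4) and a limma 95% interval of -0.43 to -0.05, or a fold of 0.743 to 0.969. FITM2 had a limma unadjusted p of 0.0240 and did not pass after adjustment over all kept probes (limma adjusted p = 0.996). In a fit that kept all 8 arrays with array number as a random block and a separate dye term per slide, the FITM2 p was 0.0962 (limma adjusted p = 0.716). The mean was -0.09 on slide 87 and -0.39 on slide 88. On array 4 of slide 88, where the ratio was -0.74, the FITM2 lipid channel was below its limit, at 0.96 times. Without that array, an alternative chosen after seeing the data, the FITM2 mean was -0.14 (limma unadjusted p = 0.175, adjusted p = 1.00).

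The dimmer FITM2 probe, detected in 3 lipid and 1 control channels on 3 arrays, was outside the filter and was not tested. Its pool pair ratios were -0.13, -0.29, 0.07 and -0.14, a mean of -0.13 ± 0.15 (SD, n = 4), below 0 in 3 of 4 pool pairs. FITM1, the related protein best known from muscle, was detected in 7 lipid and 7 control channels and had a mean of -0.02 ± 0.24 (SD, n = 4).

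BSCL2 encodes seipin, the ring-shaped protein at the contact between the endoplasmic reticulum and a growing droplet. Its probe was not well above background in 8 of 8 lipid channels and was detected in 1 control channel. The foreground was 112 to 207 in lipid channels (median 170) and 115 to 302 in control channels (median 188). As an upper bound, each lipid level was raised, where lower, to the lowest normalized level of any probe detected in that channel. The mean control level did not exceed this bound (log2 control minus bound -0.20), so no fold is given.

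Over the whole array, 0 of 28844 kept probes (0%) passed the limma test after Benjamini-Hochberg adjustment at 0.05, and the lowest adjusted p was 0.996. At an unadjusted p under 0.05 there were 1287 probes (4.46%), 597 higher and 690 lower with lipid. Of the 9 kept probes of the set, 0 passed after adjustment and 1, that of FITM2, had an unadjusted p under 0.05. A ratio of the same sign in all 4 pool pairs occurred in 2 of 9 probes, PLIN1 above 0 and FITM2 below 0, against 11.4% of all kept probes. A mean above 0 occurred in 4 of 9 probes of the set, against 46.3% of all kept probes. With 9 probes, 1 probe more or less changes a share greatly, so nothing is read from counts of 1, 2 and 4 beside these background shares.

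By pool pair, 3, 5, 4 and 4 of the 8 genes were above 0 in pool pairs 1 to 4, with medians of -0.06, 0.09, 0.03 and -0.01. The medians over all genes were -0.01, 0.02, -0.01 and 0.00. Single genes ranged from -0.25 to 0.25 in pool pair 1, from -0.33 to 0.52 in pool pair 2, from -0.70 to 0.64 in pool pair 3 and from -0.77 to 0.10 in pool pair 4. The 8 genes therefore did not move together in any pool pair, and the widest values belonged to different genes: CIDEC and PLIN2 in pool pair 2, PLIN2 and PLIN3 in pool pair 3, and HILPDA in pool pair 4.

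Other proteins of the droplet were spread in the same way. Of 28 genes for droplet enzymes, lipases and their partners, 24 had a kept probe, with 11 means above 0 and 13 below, a median of -0.01, 0 past the adjusted threshold and 0 with an unadjusted p under 0.05 through the brightest probe. Through a dimmer kept probe MOSPD2 had 0.32 (limma unadjusted p = 0.0447, adjusted p = 0.996), while its brightest probe gave 0.19 and its remaining kept probe -0.08. The 4 genes of smallest unadjusted p through the brightest probe are given as values only. SNX14, a sorting nexin at the contact between the endoplasmic reticulum and droplets, had 0.25 ± 0.29 (SD, n = 4; limma unadjusted p = 0.102), with 0.22, 0.66, 0.08 and 0.02 in pool pairs 1 to 4. GPAT4, on the array as AGPAT6, makes glycerolipid at the droplet surface and had 0.28 ± 0.34 (SD, n = 4; limma unadjusted p = 0.107), with detection in 5 lipid and 2 control channels.

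AUP1, a droplet protein of ubiquitin-dependent degradation, had -0.20 ± 0.30 (SD, n = 4; limma unadjusted p = 0.178). LDAF1, the partner of seipin, on the array as TMEM159, had 0.12 ± 0.15 (SD, n = 4; limma unadjusted p = 0.189) through a probe detected in 8 of 8 lipid and 8 of 8 control channels. Its other probe was detected in 1 lipid and 1 control channel. The extreme of the list was ABHD5, the activator of ATGL, at -0.31 ± 0.63 (SD, n = 4), named after its values were seen, with -0.66, -0.48, -0.73 and 0.62 in pool pairs 1 to 4. ABHD5 was thus lower with lipid in 3 pool pairs and higher in the fourth, and its other probes gave -0.24 and -0.12.

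Regulators of coat genes were the last list. PPARA, the fatty acid receptor of liver, was not detected in any channel, and the other 6 had 0 past the adjusted threshold. Their means were all above 0, but PPARG, PPARGC1A, EPAS1 and RXRA were detected in more lipid than control channels and close to the limit, so nothing is read from that count. PPARD, a fatty acid receptor expressed in many tissues and a known activator of PLIN2, had pool pair ratios of 0.11, 0.21, 0.17 and 0.43, a mean of 0.23 ± 0.14 (SD, n = 4; limma unadjusted p = 0.0323, adjusted p = 0.996). PPARD was detected in 8 of 8 lipid and 8 of 8 control channels. HIF1A, which induces HILPDA in low oxygen, had -0.19, 0.96, -0.35 and 0.40, a mean of 0.20 ± 0.60 (SD, n = 4; limma unadjusted p = 0.417, adjusted p = 1), against -0.22, 0.12, -0.04 and -0.77 for HILPDA in the same pool pairs. The other kept HIF1A probe, detected in 4 lipid and 1 control channels, gave -0.05, 0.39, 0.11 and 0.24. A HIF1A probe outside the filter gave 0.01, 0.97, 0.22 and 0.50, so the sign in pool pair 3 depended on the probe. In pool pair 4 each HIF1A probe was above 0 and HILPDA below 0.

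PPARG, the receptor of fat cell formation, had 0.11 ± 0.37 (SD, n = 4) and was detected in 4 lipid and 1 control channels. PPARGC1A, a coactivator of mitochondrial genes, had 0.04 ± 0.07, EPAS1, a relative of HIF1A, 0.07 ± 0.05, and RXRA, the partner of the PPAR receptors, 0.02 ± 0.23 (SD, n = 4 each). These 3 were detected in 3 or 4 lipid and 2 control channels, close to the limit.

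**Figure D5:**
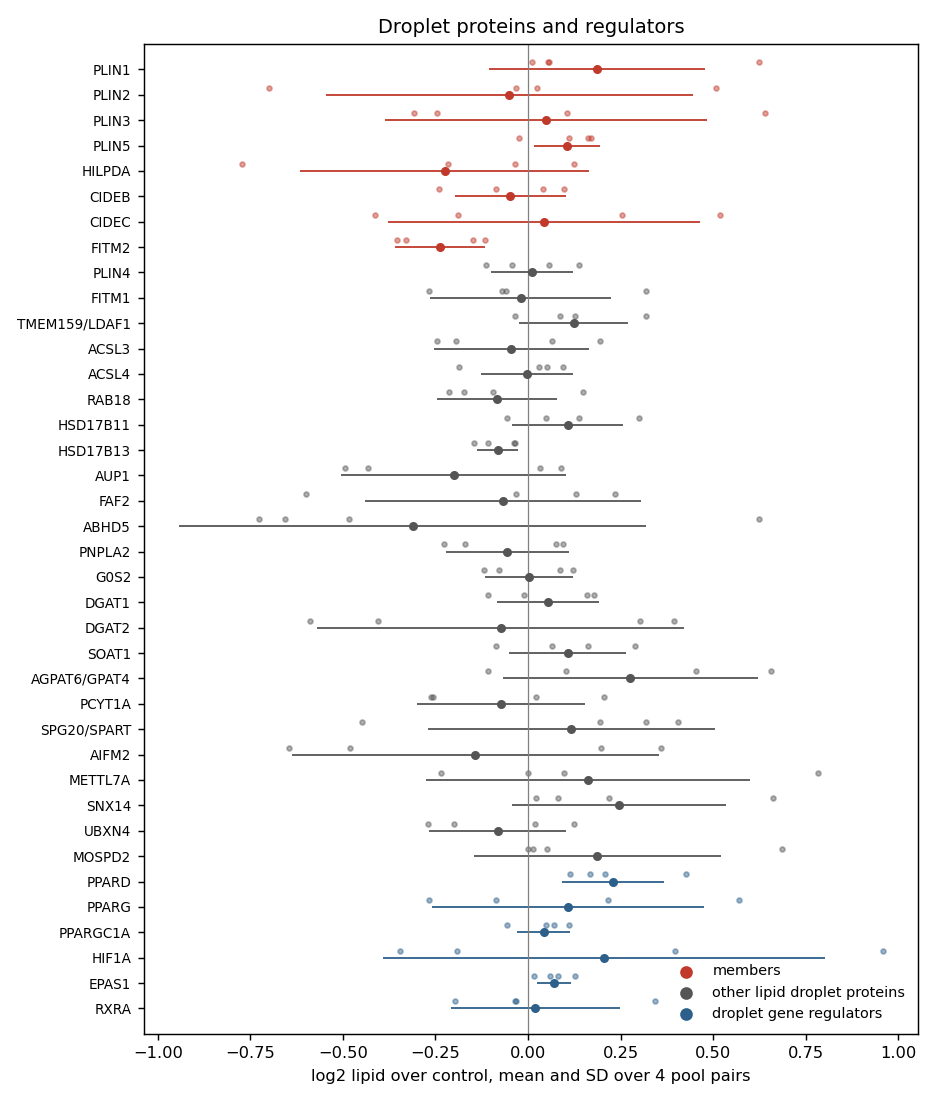
Mean log2 lipid over control (large point) with SD (line) and the 4 pool pair values (small points) for the 8 measurable genes of the set, 24 other droplet proteins and 6 regulators, each through its brightest kept probe. The pool pair values of most genes lie on both sides of 0.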

How the data were processed

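Per the file headers, the deposited scanner files hold intensity readings per spot and dye at 532 nm (Cy3) and 635 nm (Cy5). Among them are the mean and the median of the foreground and the median of the local background. The mean foreground and the background were used, with the median foreground only in an alternative. A deposited table of processed values was taken as log2 ratios. Its columns ran as lipid over control (correlation 0.950 to 0.980 with the scanner ratios over probes, slope 0.827 to 0.889, column medians -0.03 to 0.02), and it was used as an alternative. Its log base, normalization and any background correction: not given in the sources used here. The submitters' processing notes name limma.

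Intensities of 45212 spots were background-corrected by normexp (offset 50), normalized by loess within arrays with control spots at weight 0, and turned to log2 lipid over control, in limma 3.58.1 under R 4.3.3. The labels' design text describes dye-swapped pool pairs but does not number them. Array numbers occur once per slide with opposite dyes. Deviations from the dye orientation means correlated at 0.61 to 0.77 within numbers and at -0.32 to -0.03 between numbers in opposite orientations. Subtracting the orientation means itself pushes correlations between numbers below 0. Because of the high values within numbers, the arrays of a number were averaged (n = 4). Means were tested against 0 with limma (lmFit, eBayes; two-sided), and p-values were adjusted over 28844 kept probes by Benjamini-Hochberg. The code was tested on simulated data.

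A dye term is the difference between Cy5 and Cy3 orientations of a slide, divided so that it adds to one and subtracts from the other. A gene with several probes is represented by its brightest kept probe. Levels per pool were taken after a further quantile normalization of average intensities between arrays (limma Aquantile), which leaves the ratios unchanged. A summed level is the sum of these normalized intensities over a list's genes. All members with all probes are named, with the 4 other droplet genes of smallest p and every regulator. The members and lists were chosen with earlier results of these data known. The number of arrays and signal over background limit the precision. Saturated spots were kept. Alternatives were other background corrections, normalizations, filters, limits, blocks and slides, the deposited table, each pool pair left out, and, added after seeing the data, median pixels and single arrays left out.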

Additional observations from a re-analysis of the deposited data

Results flagged for a closer look

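In PLIN1, 1 pool pair stood apart from the other 3: pool pair 3 had a log2 ratio of lipid over control of 0.62, against 0.01 to 0.06 in the others. The gap to the nearest value was 0.927 of the whole range, above Dixon's 95% critical value for 4 values. The arrays of that pool pair gave 0.23 on slide 87 and 1.02 on slide 88, and the PLIN1 dye terms were 0.31 and 0.57. The probe was near the detection limit throughout.

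The median over 3 primitive endoderm markers was 0.77 in pool pair 2, against 0.00 to 0.10 in the others, a gap of 0.870 of the range. In pool pairs 1, 3 and 4 this median was the ratio of SOX17, detected in 4 lipid and 1 control channels. In pool pair 2 it was that of PDGFRA, while SOX17 was at -0.01. By pool pair, GATA4 had -0.21, 1.37, 0.17 and 0.14 and PDGFRA 0.36, 0.77, -0.56 and -0.04. A dimmer kept PDGFRA probe gave -0.04 in pool pair 2. The cumulus and granulosa median was also highest in pool pair 2, at 0.97, and the relation of the medians was not tested. In all, 32 sets of 4 values were searched and 2 stood apart, where chance marks about 1 in 20 such sets.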

How the results depend on the processing

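No probe of the set passed the threshold under any of 20 alternatives (lowest limma adjusted p 0.467), and the median over the 8 genes stayed between -0.06 and 0.06. Over all probes, 7 passed with no replicate block (8 arrays taken singly), against 0 with the arrays of a number averaged; with the array number as a replicate block (correlation 0.52) 0 passed. PLIN1 (0.04 to 0.26), PLIN5 (0.04 to 0.17), HILPDA (-0.43 to -0.02) and FITM2 (-0.39 to -0.09) kept their direction in 18 alternatives each. PLIN2 turned to 0.076 within slide 87 and to 0.10 without slide 88 array 3 (chosen after seeing the data), and leaving out 1 pool pair gave -0.24 to 0.17. For PLIN3 leaving out 1 pool pair gave -0.15 to 0.17, for CIDEB -0.096 to 0.017 and for CIDEC -0.12 to 0.19; CIDEB was 0.049 within slide 87. Of the single arrays left out after seeing the data, slide 88 array 3 gave CIDEB -0.28 and PLIN1 0.088, and slide 88 array 4 gave FITM2 -0.14, HILPDA -0.05, PLIN1 0.059, CIDEB -0.11 and CIDEC 0.19; each leaves a pool pair with 1 dye orientation. The causes were not tested. A limit from robust SDs detected 11 of 13 probes and a limit of mean plus 3 SD 6, against 9. Requiring detection on all 8 arrays left PLIN2 and PLIN3 of the set. In the authors' deposited table the means of PLIN2 and FITM2 were -0.04 and -0.23. The probes of PLIN1, PLIN5, CIDEC, CIDEA and BSCL2, the dimmer CIDEB probe and the dimmer FITM2 probe lay near or below the limit, and what difference could be detected there was not tested.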
